A study of Mus musculus with 9 samples.

Results

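The insulin-like growth factor (IGF) system of the liver was described here through 10 genes: the ligands Igf1 and Igf2, the receptor Igf1r, and the binding proteins Igfbp1 to Igfbp7. These 10 were taken by name from a table of 53713 genes, and 9 of them had at least 1 count in the cells kept. They were chosen because their counts were already known to differ between cell classes, so the levels by class below are a description and no test was made of them.

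IGF-1 and IGF-2 are secreted peptides that act through the receptor tyrosine kinase encoded by Igf1r, and the liver is the main source of the IGF-1 that circulates under the control of growth hormone. Binding proteins hold the peptides in blood and tissue, lengthen their life and limit or direct their access to the receptor, and proteases release the peptides by cutting the binding proteins. IGFBP7 binds the IGF peptides weakly and is often grouped apart as an IGFBP-related protein.

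Livers of C57BL/6J mice aged 6 to 8 weeks had been dissociated with enzymes, red blood cells had been lysed, and single cells had been barcoded in microwells (Singleron GEXSCOPE). A unique molecular identifier (UMI) marks each captured transcript at its poly-A end, so a transcript is counted once whatever its length. Wild-type mice had 0, 2 or 4 weeks of carbon tetrachloride (CCl4), a toxin used to scar the liver (1 sample each). Mice labelled CluKO had recombinant human clusterin alongside CCl4 (6 samples, for which the design text counts 3 mice), and no week is stated for them. The wild-type files carry no gene names here, so every level below comes from the matrix labelled CluKO. That matrix pools its 6 samples without a sample name per cell, so it is 1 sample with no replicate. Intervals are exact 95% intervals for counting error only and leave out the spread between mice. Fewer transcripts per cell cannot be told apart from fewer expressing cells where only a summed level is given.

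The matrix held 4694 cells, each with a barcode of its own, and 28912707 UMIs, with a median of 4803.5 UMIs per cell; the wild-type matrices held 7739 to 20215 cells. Of the 4694 cells, 4616 passed the filters and 4007 fell into a single class by the number of marker genes with a UMI, a procedure called gating below. A level is the summed count of a class per 1000000 of its UMIs (CPM). Clu itself, the gene named in the label, was counted at 479 CPM (471 to 487) over all cells kept, at 2028 CPM in hepatocyte-gated cells and at 1550 CPM in mesothelial-gated cells, so the Clu counts go against the label CluKO. Which stretch of Clu was deleted is not stated in the labels, and a tag outside it would check nothing. Mesothelial cells form the sheet that covers the liver, and 473 cells passed their gate. They were divided into 259 cells without a UMI of Enpp2 (the gene of autotaxin), 98 with at least 1, and 116 cycling cells. All 12 mesothelial markers were present in each of these subsets, which partly follows from the gate, since it asked for at least 5 of them. The other large classes were 685 hepatocytes, 1786 macrophages (578 Kupffer, 692 lipid-associated, 170 with Cx3cr1 and MHC class II genes, and 346 others), 263 monocytes, 159 granulocyte-monocyte progenitors, 194 neutrophils and 46 basophils or mast cells. A further 326 T or NK, plasma and erythroid cells served as the level of background. The 17 hepatocyte markers summed to 63107 CPM in hepatocyte-gated cells and to 622 CPM in background cells. The first value partly follows from the gate, which asked for at least 10 of these 17.

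Igfbp1 and Igfbp3, and likewise Igfbp2 and Igfbp5, are neighbouring genes that point towards each other, and in each pair the members differed in the class that held their counts. In GRCm38, Igfbp1 (ENSMUSG00000020429, chr11:7197782-7202546, plus strand) and Igfbp3 (ENSMUSG00000020427, chr11:7206086-7213923, minus strand) lie 3539 bases apart. Igfbp2 (ENSMUSG00000039323, chr1:72824503-72852474, plus strand) and Igfbp5 (ENSMUSG00000026185, chr1:72857932-72874884, minus strand) lie 5457 bases apart. The 250 bases before the RefSeq start of each (GRCm38.p6), read 5′ to 3′ on the strand of the gene (for Igfbp2 the nearer of 2 listed starts), are shown because these neighbours had opposite patterns; capitals mark matches to the motifs named after them. The windows are chr11:7197537-7197786 for Igfbp1, chr11:7213924-7214173 for Igfbp3, chr1:72824230-72824479 for Igfbp2 and chr1:72874866-72875115 for Igfbp5.
Igfbp1: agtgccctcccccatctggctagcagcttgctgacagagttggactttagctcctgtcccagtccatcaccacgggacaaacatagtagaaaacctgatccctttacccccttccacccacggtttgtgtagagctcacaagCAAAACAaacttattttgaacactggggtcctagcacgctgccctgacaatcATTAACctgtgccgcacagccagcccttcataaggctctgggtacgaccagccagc
Igfbp3: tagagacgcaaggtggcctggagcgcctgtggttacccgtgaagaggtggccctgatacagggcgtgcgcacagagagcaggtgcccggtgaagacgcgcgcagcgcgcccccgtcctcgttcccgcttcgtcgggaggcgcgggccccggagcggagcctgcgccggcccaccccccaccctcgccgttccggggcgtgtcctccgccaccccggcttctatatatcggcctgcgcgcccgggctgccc
Igfbp2: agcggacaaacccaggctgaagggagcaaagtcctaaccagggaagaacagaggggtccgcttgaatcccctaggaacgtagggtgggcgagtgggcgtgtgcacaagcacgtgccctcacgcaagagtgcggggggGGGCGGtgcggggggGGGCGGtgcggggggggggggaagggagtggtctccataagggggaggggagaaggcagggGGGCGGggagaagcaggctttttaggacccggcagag
Igfbp5: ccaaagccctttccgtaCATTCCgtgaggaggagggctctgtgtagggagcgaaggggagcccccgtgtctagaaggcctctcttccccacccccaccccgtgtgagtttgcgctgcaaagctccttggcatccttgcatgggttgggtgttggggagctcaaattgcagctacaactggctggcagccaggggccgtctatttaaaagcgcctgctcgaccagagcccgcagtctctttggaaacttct

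Searched on both strands were TATAAA (the TATA box), GGGCGG (the GC box), CAAAACA (the core of the insulin response element), GTTAAT (part of the site of HNF1, a transcription factor of hepatocytes and other epithelia), TGANTCA (AP-1) and GGAATG (TEAD). No matches overlapped in these 4 windows. Igfbp1, which insulin is known to repress in hepatocytes, had CAAAACA 108 bases and the reverse strand of GTTAAT 56 bases before its start. Of 32851 windows of this length, 5.56% hold the first and 6.43% the second. Its neighbour Igfbp3 had no match to any of the 6 motifs and 32 CpG dinucleotides, more than in 95.4% of windows, against 5 CpG for Igfbp1. Igfbp2 had 3 GC boxes, a motif found in 32.7% of windows, and 14 CpG. Igfbp5 had 1 match to GGAATG (12.6% of windows), as its reverse strand, and 10 CpG. A match describes letters in a window and shows no binding.

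**Figure D1:**
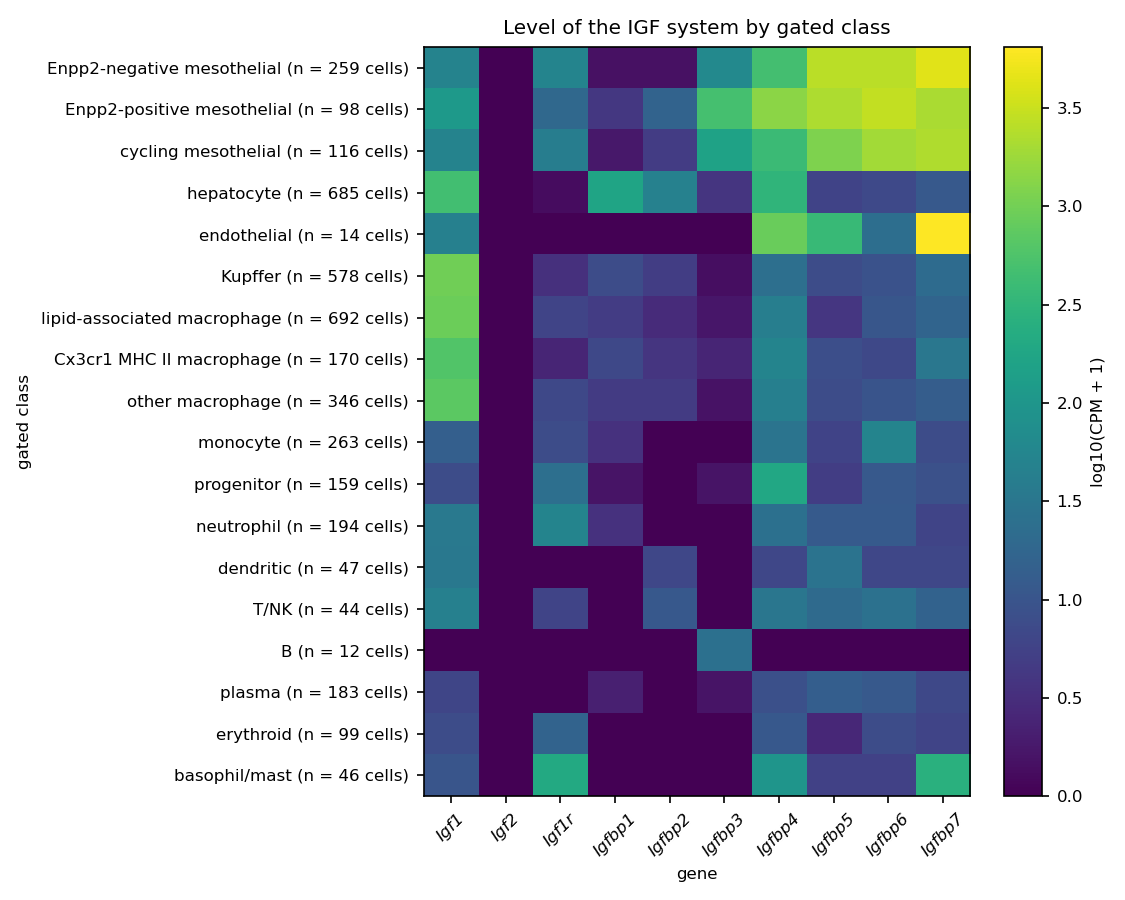
Level of the 10 genes (columns) in 18 gated classes (rows; n is the number of cells), as log10(CPM + 1) by colour. Igfbp3, Igfbp5, Igfbp6 and Igfbp7 stood high in the mesothelial subsets, Igfbp1 and Igfbp2 in hepatocytes, and Igf1 in macrophages and hepatocytes. Igf2 had no count. The endothelial row rests on 14 cells and the B-cell row on 12, and the stellate class of 2 cells is not shown.

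The ligand Igf1 (ENSMUSG00000020053, chr10:87858265-87937042, plus strand) was counted mainly in macrophages. Its level was 976 CPM (938 to 1016) in Kupffer-gated cells, the resident macrophages of the sinusoids, and 907 CPM (882 to 932) in lipid-associated macrophages, the class marked by Gpnmb, Spp1 and Trem2. It was 697 CPM (661 to 736) in other macrophages and 592 CPM (536 to 652) in Cx3cr1 MHC class II macrophages. The intervals of these 4 macrophage classes did not overlap between neighbours in this order. Hepatocyte-gated cells stood next, at 446 CPM (422 to 470). Their Alb level was 6609 CPM, against 626 CPM in Kupffer-gated cells. Erythroid markers summed to 30979 CPM in hepatocyte-gated cells and to 8617.5 CPM in all macrophages. The part of cell state and of these erythroid counts in the hepatocyte Igf1 level was not tested. Igf1os, which overlaps Igf1 on the other strand, had 16 UMIs in all cells kept; whether strand was used in counting is not stated, so reads of overlapping genes cannot be told apart.

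Igf1 in Kupffer-gated cells was 2.19-fold (2.05 to 2.34) that of hepatocytes, and in lipid-associated macrophages 2.04-fold (1.92 to 2.16). Of the Igf1 UMIs in gated cells, 84.8% lay in macrophages, 12.3% in hepatocytes and 2.10% in mesothelial cells; these shares also follow from how many cells of each class were captured. A UMI of Igf1 was found in 92.0% of Kupffer-gated cells (median 4116 UMIs), 94.7% of lipid-associated macrophages (median 7484.5), 68.9% of hepatocytes (median 3358) and 5.21% of background cells (median 6619.5). With every cell thinned to 1000 UMIs the shares were 60.0%, 55.1%, 36.8% and 1.23%. The hepatocyte markers summed to 1857 CPM in Kupffer-gated and 907 CPM in lipid-associated cells, above the background of 622 CPM. The part of these markers in the macrophage Igf1 levels was not tested.

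Monocytes, the blood precursors of many macrophages, held Igf1 at 13.2 CPM (7.52 to 21.4), which overlapped the pooled background of 8.75 CPM (5.48 to 13.2). That background was mixed. It was 45.1 CPM (20.6 to 85.7) in T or NK cells, 6.79 CPM (1.85 to 17.4) in erythroid cells and 5.22 CPM (2.39 to 9.90) in plasma cells. Granulocyte-monocyte progenitors were at 6.80 CPM (3.51 to 11.9). Cycling macrophages, a group taken across the macrophage classes, were at 781.5 CPM (747 to 817). That level was 0.800 of the level in Kupffer-gated cells. Cycling Kupffer-gated cells can lie on either side of this ratio, so no interval is given for it. The ratio also mixes macrophage class with cycling, and a difference due to cycling alone was not tested. Among the macrophage classes, Igf1 was therefore at 592 CPM or more in each, while the monocyte and progenitor intervals overlapped that of the pooled background.

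**Figure D2:**
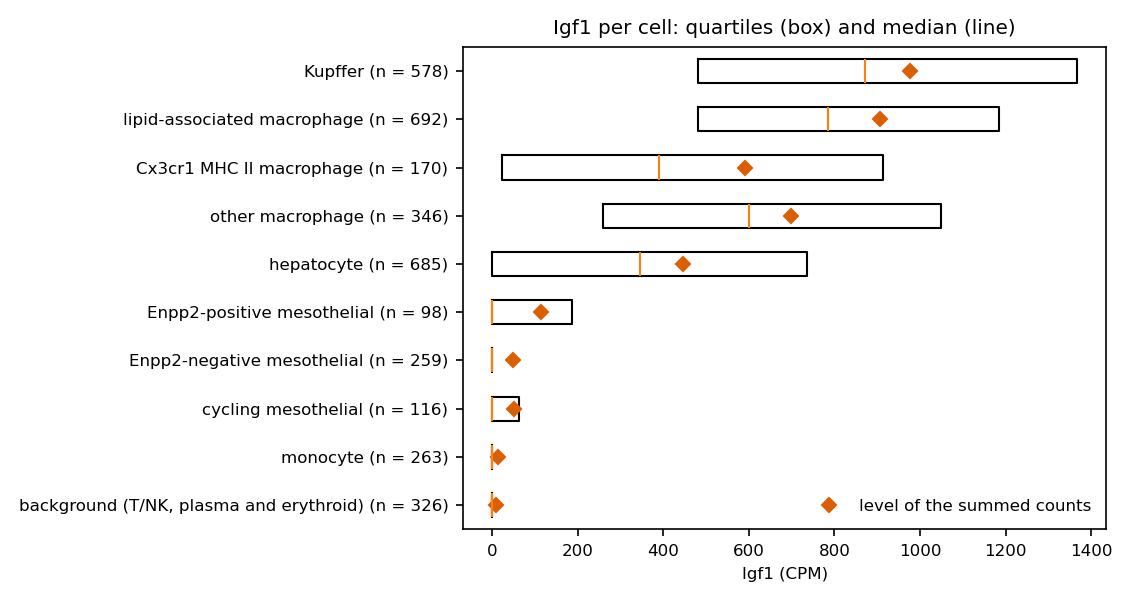
Igf1 level per cell in 10 gated classes (n is the number of cells): boxes run from the lower to the upper quartile of CPM per cell, the line is the median, and diamonds are the level of the summed counts. The 4 macrophage classes and hepatocytes had medians of 346 to 871 CPM, whereas the median was 0 in mesothelial subsets, monocytes and background cells.

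Within hepatocytes, Igf1 was spread over many cells. The highest cell held 34 UMIs, and 104 of the 685 cells held 50% of the counts. Hepatocytes above the median in albumin share carried 544 CPM (508 to 581) against 345 CPM (316 to 376) below it, a ratio of 1.58 (1.41 to 1.76). Hepatocytes with Clu above 2000 CPM and the others were at 444 and 446 CPM, a ratio of 0.996 (0.864 to 1.14).

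The other ligand, Igf2 (ENSMUSG00000048583, chr7:142650766-142666816, minus strand), a fetal growth factor that is silenced in most adult mouse tissues, had 0 UMIs in all 4616 cells. An overlapping transcript on the same strand, Gm49394, also had 0. H19, the imprinted neighbour of Igf2, had 13 UMIs, all in mesothelial-gated cells among the gated classes. A count of 0 shows no detection at this depth.

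The receptor gene Igf1r (ENSMUSG00000005533, chr7:67952827-68233668, plus strand) was low in most classes and highest in basophils or mast cells. There it stood at 208 CPM (152 to 278), with a UMI in 50.0% of 46 cells and in 28.3% after thinning. Neutrophils followed at 52.2 CPM (37.6 to 70.5) and Enpp2-negative mesothelial cells at 51.3 CPM (41.8 to 62.3), and these intervals overlapped. Cycling mesothelial cells were at 39.7 CPM (29.7 to 52.1), granulocyte-monocyte progenitors at 23.8 CPM (17.1 to 32.2) and Enpp2-positive mesothelial cells at 18.7 CPM (9.65 to 32.6). In basophils or mast cells, granulocyte-monocyte progenitor markers summed to 3164 CPM, against 21.1 CPM in background cells. Cycling markers summed to 3178 and 1989 CPM. The part of immature or cycling cells in this Igf1r level was not tested.

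Hepatocytes were among the classes lowest in Igf1r, beside dendritic and plasma cells, which had 0 UMIs and overlapping intervals. A single UMI was counted in 685 hepatocyte-gated cells, which is 0.324 CPM (0.0082 to 1.81), and the background class had 10 UMIs (3.98 CPM, 1.91 to 7.31). Of these, 9 lay in erythroid cells (15.3 CPM, 6.98 to 29.0) and 1 in T or NK cells, and plasma cells had 0 (up to 2.14 CPM). Macrophages were at 4.29 CPM (3.16 to 5.71), which overlapped the pooled background and lay above the interval of plasma cells. The classes with the most Igf1, macrophages and hepatocytes, thus had Igf1r at 4.29 and 0.324 CPM, and the classes with Igf1r at 18.7 CPM or more held Igf1 at 114 CPM or less. Basophils or mast cells had 4.06-fold (2.80 to 5.80) the Igf1r level of Enpp2-negative mesothelial cells. Mesothelial-gated cells held 45.9% of all Igf1r UMIs in gated cells.

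**Figure D3:**
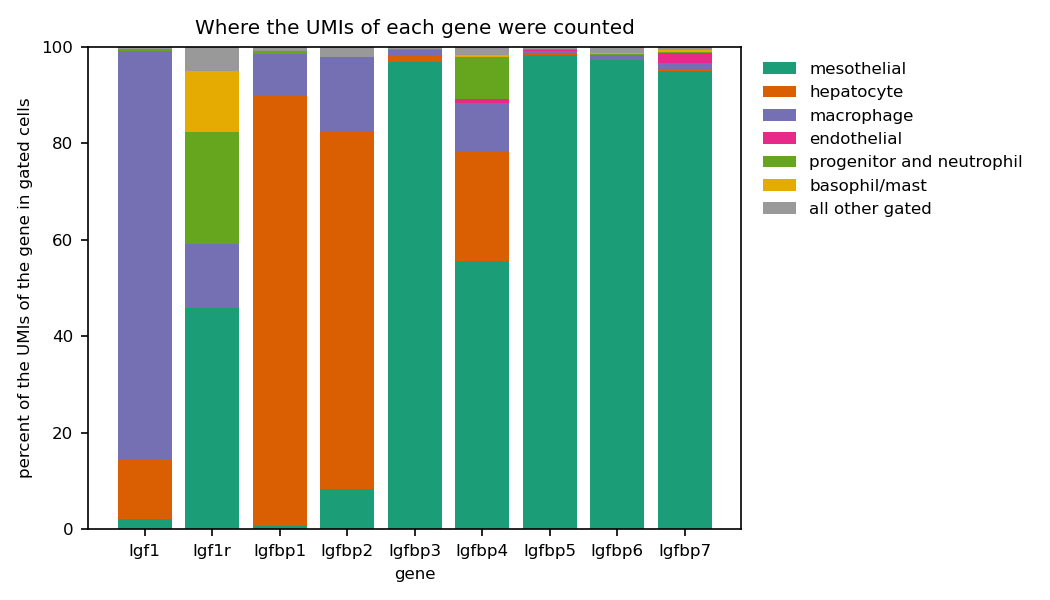
Percent of the UMIs of each gene in gated cells (y axis) by class (colours), for the 9 genes with counts. Mesothelial-gated cells held 95.1% to 98.3% of the UMIs of Igfbp3, Igfbp5, Igfbp6 and Igfbp7, hepatocytes 89.2% of Igfbp1 and 74.1% of Igfbp2, and macrophages 84.8% of Igf1.

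Among the binding proteins, Igfbp1 and Igfbp2 were hepatocyte genes in these data. Igfbp1, whose product is induced in liver by fasting and stress, was at 166 CPM (152 to 181) in hepatocytes and at 6.69 CPM (3.89 to 10.7) in Kupffer-gated cells, the next class. Hepatocytes held 89.2% of its UMIs. Its counts were very uneven: only 17.7% of hepatocytes (121 cells) had a UMI, and 2 cells with 172 and 114 UMIs held 55.9% of the counts. Without these 2 cells the hepatocyte level was 74.7 CPM (65.3 to 85.1).

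Both of those cells, and 6 of the 10 highest, belonged to the 98 hepatocytes with Clu above 2000 CPM. Igfbp1 stood at 649 CPM (584 to 720) in these Clu-high cells and at 60.8 CPM (51.6 to 71.2) in the other 587, a 10.7-fold ratio (8.82 to 12.99). Without the 2 cells the ratio was 2.41 (1.79 to 3.20), with Clu-high cells at 146 CPM. Lipid-associated macrophage markers summed to 1987 CPM in Clu-high and 357 CPM in other hepatocytes (8 of 8 present in each), and stellate or fibroblast markers to 156 and 23.3 CPM (3 and 4 of 12 present, with Pdgfrb, Lrat and Des at 0 in both). The 10 macrophage markers summed to 163 and 162 CPM. The part of these markers in the difference was not tested.

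Igfbp2, abundant in fetal liver and in serum, was at 46.3 CPM (39.1 to 54.6) in hepatocytes, with a UMI in 14.3% of them. Hepatocytes held 74.1% of its UMIs. Unlike Igfbp1, no cell had more than 5. Its level was 67.1 CPM (54.9 to 81.2) in hepatocytes with a high albumin share and 25.0 CPM (17.7 to 34.3) in those with a low share, a 2.68-fold ratio (1.84 to 4.00). Outside hepatocytes the highest class of at least 40 cells was Enpp2-positive mesothelial cells, at 15.6 CPM (7.47 to 28.6) from 10 UMIs, and Enpp2-negative mesothelial cells had 1 UMI.

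Set against all other gated cells, hepatocytes were at least 2-fold higher for 3 of the 10 genes, where 15.5% of 13318 genes were higher, and at least 2-fold lower for 5, where 42.7% were lower. The 3 were Igfbp1 at 58.1-fold (44.5 to 76.9), Igfbp2 at 20.1-fold (14.5 to 28.3) and Igfbp4 at 2.07-fold (1.92 to 2.22). The 5 were Igf1r, Igfbp3, Igfbp5, Igfbp6 and Igfbp7. A gene entered such a count with at least 30 UMIs on either side. With each cell weighted equally the Igfbp1 ratio was 24.4-fold, and with cells thinned to 1000 UMIs the Igfbp2 ratio was 11.9-fold. Igf1r was 51.3-fold lower from its single UMI, and 7.22-fold lower when cells that passed several gates were included.

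Igfbp3, Igfbp5, Igfbp6 and Igfbp7 were counted mainly in mesothelial-gated cells in these data, and Igfbp4 was mesothelial with a wider range. The stellate or fibroblast gate held only 2 cells and the endothelial gate 14. The other gated cells thus held few cells of these types. Whether these genes separate mesothelial cells from stellate cells or fibroblasts cannot be told here. Mesothelial-gated cells were higher than other gated cells by 169-fold for Igfbp3 (109 to 279), 315-fold for Igfbp5 (266 to 376), 184-fold for Igfbp6 (163 to 208) and 103-fold for Igfbp7 (95.5 to 112). Igfbp4 was 6.60-fold higher (6.21 to 7.02) and Igf1r 4.48-fold higher (3.62 to 5.54). Lower in mesothelial-gated cells were Igf1 by 8.81-fold (7.74 to 10.1), Igfbp1 by 26.9-fold (10.5 to 99.2) and Igfbp2 by 2.09-fold (1.25 to 3.74).

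So 6 of the 10 genes were at least 2-fold higher and 3 lower, and Igf2 could not be placed; of 13156 genes, 20.8% were higher and 21.1% lower. Since the genes were chosen on this pattern, nothing is read from that count. With each cell weighted equally Igfbp3 was 351-fold higher and Igfbp1 9.99-fold lower, and with cells that passed several gates included Igfbp3 was 103-fold higher.

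Igfbp5 (a binding protein that attaches to extracellular matrix) was at 2633 CPM (2562 to 2705) in Enpp2-negative mesothelial cells, 2234 CPM (2120 to 2353) in Enpp2-positive and 1188 CPM (1130 to 1249) in cycling ones. Every other class of at least 40 cells was at 27.6 CPM or less. The endothelial level of 363 CPM came from 16 UMIs in 1 of 14 cells. Cells differed widely within a subset: in Enpp2-negative cells the quartiles of Igfbp5 per cell were 510 and 3905 CPM, and the highest cell held 231 UMIs.

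Igfbp6, whose product prefers IGF-2 over IGF-1, was the most even of the mesothelial binding proteins. A UMI was found in 100% of the non-cycling and 99.1% of the cycling mesothelial cells, and in 6.75% of background cells. Its level was 2879 CPM (2749 to 3013) in Enpp2-positive, 2647 CPM (2576 to 2719) in Enpp2-negative and 1925 CPM (1850 to 2002) in cycling cells. Monocytes were the next class, at 51.8 CPM (39.8 to 66.3) against 10.7 CPM (7.08 to 15.6) in background cells, a 4.82-fold ratio (3.03 to 7.88). Within that background, plasma cells were at 10.4 CPM (6.18 to 16.5) and erythroid cells at 6.79 CPM (1.85 to 17.4). T or NK cells were at 25.1 CPM (8.14 to 58.5), which overlapped the monocyte interval. The mesothelial markers summed to 41.1 CPM in monocytes and 38.6 CPM in background cells.

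Igfbp7 (ENSMUSG00000036256, chr5:77349240-77408041, minus strand) was at 4413 CPM (4321 to 4506) in Enpp2-negative mesothelial cells, 2311 CPM (2230 to 2395) in cycling and 2127 CPM (2015 to 2242) in Enpp2-positive ones. The last 2 intervals overlapped. The gene overlaps the end of Polr2b. Igfbp7, long known in vessel walls, was higher still in endothelial cells, at 6470 CPM (5741 to 7267) and present in 14 of 14 cells, which was 1.47-fold (1.30 to 1.65) the Enpp2-negative level. Basophils or mast cells carried 258 CPM (195 to 334), with a UMI in 60.9% of cells, against 6.36 CPM (3.64 to 10.3) in background cells. In those basophils or mast cells 10 of the 12 mesothelial markers were at 0. The endothelial markers summed to 254 CPM there and to 18.7 CPM in background cells, with 3 of 12 present (Pecam1, Cdh5 and Egfl7) and Stab2, Kdr and Tie1 among those at 0; their part in the Igfbp7 level was not tested.

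Igfbp4 (ENSMUSG00000017493, chr11:99041244-99054392, plus strand), the substrate of the protease PAPP-A, was spread over more classes. It was at 1384 CPM (1294 to 1478) in Enpp2-positive mesothelial cells, 466 CPM (436 to 497) in Enpp2-negative and 394 CPM (361 to 430) in cycling ones. Endothelial cells were at 863 CPM (610 to 1184) from 38 UMIs. Hepatocytes were at 309 CPM (290 to 329), with a UMI in 58.8% of cells.

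Granulocyte-monocyte progenitors held Igfbp4 at 195 CPM (175 to 216), 19.6-fold (13.05 to 30.7) the background of 9.94 CPM, while monocytes were at 28.0 CPM (19.4 to 39.1) and neutrophils at 24.8 CPM (15.2 to 38.4). A UMI was found in 70.4% of progenitors at a median of 10373 UMIs, and in 11.9% after thinning, against 1.23% of background cells. Mesothelial cells held 55.5% of all Igfbp4 UMIs, hepatocytes 22.7% and progenitors 8.19%. No other binding protein was above 11 CPM in progenitors.

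Mesothelial cells usually carried several binding proteins together. The median mesothelial-gated cell had a UMI of 4 of the 7 (3 after thinning), and 64.1% of the 473 cells had Igfbp4, Igfbp5, Igfbp6 and Igfbp7 together. In hepatocytes the median was 1, and 29.1% of cells had none. The 7 genes summed to 8632 CPM (8541 to 8724) in mesothelial cells, 546 CPM in hepatocytes, 77.6 CPM in macrophages and 39.8 CPM in background cells. The 14 endothelial cells stood at 7719 CPM (6920 to 8585), which overlapped the mesothelial level, with a median of 2 binding proteins per cell.

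Mesothelial cells with and without Enpp2 differed in which binding proteins they carried. Enpp2 makes the extracellular lipid signal lysophosphatidic acid, and cells with its UMI also had more Col3a1 (4832 against 1501 CPM), the gene of a fibrillar collagen. Igfbp3, the main carrier of IGF in blood, was 489 CPM (436 to 546) with Enpp2 and 60.9 CPM (50.5 to 72.7) without, an 8.03-fold ratio (6.49 to 9.99). Igfbp4 was 2.97-fold higher (2.71 to 3.26) and Igf1 2.33-fold higher (1.69 to 3.19), at 114 against 48.8 CPM.

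Lower in Enpp2-positive cells were Igf1r by 2.75-fold (1.51 to 5.49) and Igfbp7 by 2.07-fold (1.96 to 2.20). Igfbp5 was 1.18-fold lower and Igfbp6 1.09-fold higher. Of the 10 genes, 3 were thus at least 2-fold higher, where 3.71% of 7338 genes were higher, and 2 lower, where 6.91% were lower; the other 3 (Igf2, Igfbp1 and Igfbp2) had too few counts. The Igfbp7 ratio lies close to 2, and Igfbp7 fell by 0.99 on the log2 scale, just short of 2-fold, when cells that passed several gates were included.

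The non-cycling cells were also divided by their number of Enpp2 UMIs. Igfbp3 was at 60.9 CPM with 0 Enpp2 UMIs (259 cells), 124 CPM with 1 to 4 (43 cells) and 807 CPM with 5 or more (55 cells). Igfbp4 was at 466, 1154 and 1585 CPM, and Igfbp7 at 4413, 2742 and 1591 CPM in the same order, with no overlap of intervals for these 2 genes. Igfbp5 was at 2633, 2648 and 1873 CPM, so only the cells richest in Enpp2 were lower. Igfbp6 was at 2647, 2943 and 2823 CPM, and Igf1r at 51.3, 16.7 and 20.4 CPM. A UMI of Igfbp3 was found in 17.4%, 11.6% and 54.5% of the cells. Its middle level rests on 5 cells, of which 1 held 17 of the 37 UMIs.

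Stellate or fibroblast markers moved with this split. Their 12 genes summed to 10554 CPM in Enpp2-positive cells (8 present, with Lrat, Rgs5, Reln and Hgf at 0), to 7206 CPM in Enpp2-negative cells (9 present, with Rgs5, Reln and Ngfr at 0) and to 4666 CPM in cycling cells (8 present). Most of each sum was Dcn, the gene of decorin, at 9809, 6448 and 4016 CPM. Lum was 54.5 against 3.02 CPM and Des 54.5 against 15.1 CPM with and without Enpp2. Other genes of the list went the other way, with Acta2 at 103 against 150 CPM, Colec11 at 1.56 against 18.6 CPM and Ecm1 at 520.0 against 567 CPM. The 12 mesothelial markers summed to 5992 CPM with Enpp2 and 9563 CPM without. The part of these other markers in the binding-protein differences was not tested. Median depth was 5653 UMIs with Enpp2 and 7118 without.

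**Figure D4:**
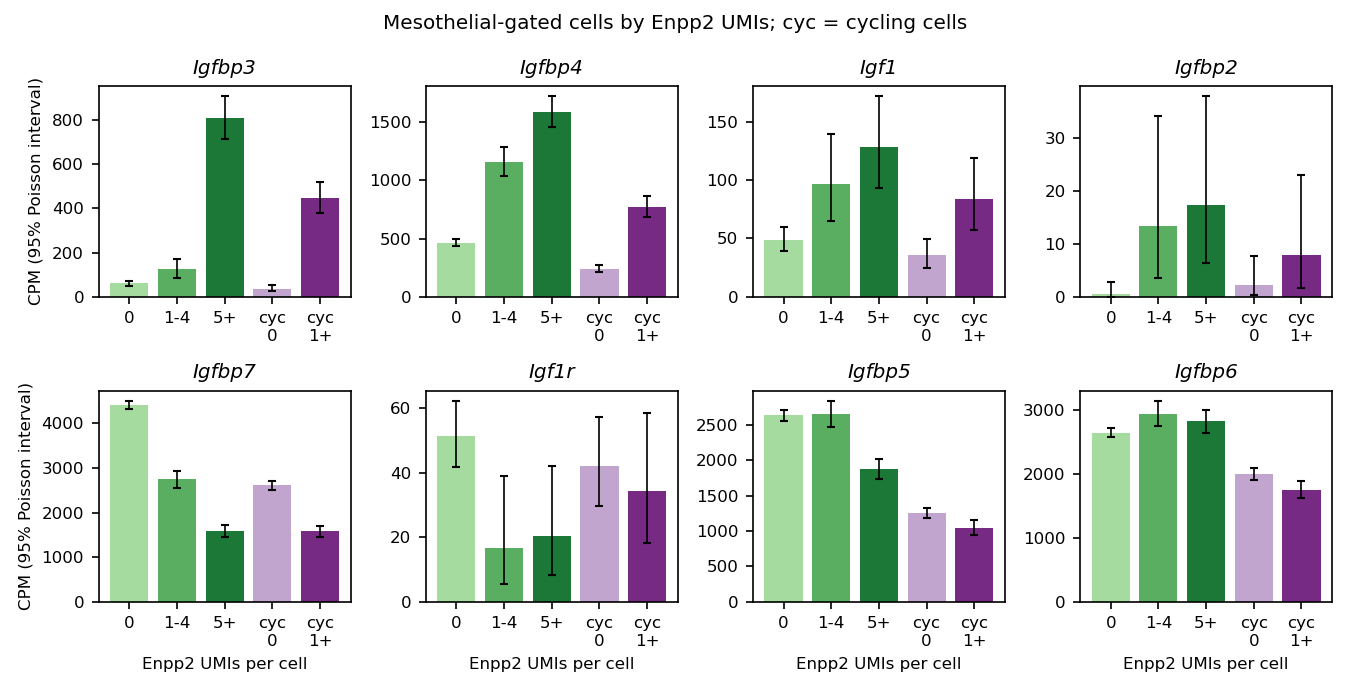
Level of 8 genes in mesothelial-gated cells by Enpp2 UMIs per cell (0, 1 to 4, 5 or more; green) and in cycling mesothelial cells without and with Enpp2 (purple, marked cyc); bars are CPM of the summed counts and whiskers are 95% Poisson intervals. Igfbp3 and Igfbp4 stood higher and Igfbp7 lower in cells with Enpp2, among non-cycling and cycling cells alike.

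In the cycling subset Igfbp3 and Igfbp4 were also higher and Igfbp7 lower with Enpp2: with and without it, Igfbp3 was at 445 and 37.6 CPM, Igfbp4 at 769 and 241 CPM, and Igfbp7 at 1577 and 2611 CPM, a difference under 2-fold. Igf1r was at 34.2 CPM (18.2 to 58.5) and 41.9 CPM (29.8 to 57.3) there, with overlapping intervals. Against all non-cycling mesothelial cells, cycling cells were lower for Igfbp5 by 2.13-fold (2.02 to 2.26), Igfbp4 by 1.75-fold (1.59 to 1.94), Igfbp7 by 1.67-fold (1.60 to 1.74) and Igfbp6 by 1.40-fold (1.34 to 1.47). For Igf1, Igf1r and Igfbp3 the interval of the ratio included 1. That ratio mixes cells with and without Enpp2. Without Enpp2, Igfbp3 in cycling cells was 0.618 (0.412 to 0.907) of its non-cycling level. With Enpp2 it was 0.910 (0.751 to 1.10). Thus 1 of the 10 genes passed 2-fold, Igfbp5 (5.07% of 8525 genes were lower and 6.44% higher), and with each cell weighted equally it did not, at 0.86 lower on the log2 scale. Cycling cells were deeper, with a median of 9968 UMIs.

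Between macrophage classes, Cx3cr1 MHC class II cells had 2.12-fold (1.36 to 3.27) the Igfbp4 of Kupffer-gated cells and 0.606 of their Igf1 (0.544 to 0.673). Lipid-associated macrophages had 1.08-fold (1.03 to 1.13) less Igf1 than Kupffer-gated cells and 1.76-fold (1.32 to 2.37) more Igfbp4, at 42.2 against 24.0 CPM. Of the 10 genes, 4 had enough counts for lipid-associated against Kupffer-gated cells, and none of these passed 2-fold, where 7.73% of 9255 genes were higher and 14.7% lower. All macrophages together were 1.94-fold (1.84 to 2.06) higher than hepatocytes in Igf1. In that comparison Igf1r was at least 2-fold higher (47 UMIs against 1, 13.2-fold, and 2.06-fold with several-gate cells included; 35.3% of 11057 genes were higher) and Igfbp1, Igfbp2 and Igfbp4 at least 2-fold lower (22.1% were lower), with Igfbp4 7.98-fold lower (7.11 to 8.97).

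The wider pathway was described with a list of 72 genes that includes the 10. Of its other 62 genes, 48 had enough counts in mesothelial-gated against other gated cells; 16 were at least 2-fold higher and 5 at least 2-fold lower, where 20.8% and 21.1% of all genes were, and their median log2 ratio (with 20 CPM added to each side) was 0.31 against 0.01 over all 13156 genes. Of 6 genes of growth hormone input, 4 were higher, beside 20.8% of all genes. Ghr, the growth hormone receptor, was at 91.9 against 20.6 CPM, 4.46-fold (3.87 to 5.15). The interval in mesothelial cells, 82.7 to 102 CPM, lay below that in hepatocytes, 114 to 139 CPM around 126 CPM, and macrophages were at 2.56 CPM. Socs2 and Cish, targets of this signal that also restrain it, were 9.21-fold and 20.2-fold higher, and Jak2, its kinase, 2.02-fold, close to the limit. The other genes of this group, Stat5a and Stat5b, did not pass 2-fold in either direction. Socs2, Cish and Jak2 were named after their values were seen.

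Among 13 proteases that cut binding proteins and their inhibitors, 9 had enough counts, with 5 higher and 2 lower, beside 20.8% and 21.1% of all genes. Pappa, which encodes PAPP-A, had 116 UMIs in mesothelial cells (29.4 CPM, 24.3 to 35.3) and 0 in the other 3534 gated cells. Against a floor of 3 counts over those cells it was at least 205-fold higher. Adam12 was 153-fold higher (87 against 3 UMIs, 50.8 to 758) and Plat, the tissue plasminogen activator, 101-fold (67.3 to 160). Htra1 and Htra3, secreted serine proteases, were 17.8-fold and 39.3-fold higher. Lower were Plg, the plasminogen gene of hepatocytes, by 82.8-fold (1 UMI in mesothelial cells, 14.8 to 3278) and the lysosomal protease gene Ctsd by 15.0-fold (14.2 to 15.8). Within mesothelial cells Htra3 was 134 CPM with Enpp2 and 14.6 CPM without, 9.18-fold (5.96 to 14.5), and Pappa was 54.5 CPM (38.0 to 75.8) and 32.7 CPM (25.2 to 41.7).

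Igf2r, which clears IGF-2 and carries lysosomal enzymes, was at 56.1 CPM in mesothelial and 40.1 CPM in other gated cells. Macrophages had it at 70.7 CPM (65.8 to 75.9) and hepatocytes at 3.24 CPM (1.55 to 5.96). In mesothelial cells it was 3.05-fold higher (2.17 to 4.29) with Enpp2 than without, at 112 against 36.7 CPM, the reverse of Igf1r. Insr, the insulin receptor, was at 15.2 and 8.83 CPM in mesothelial and other gated cells, and Igfals, the acid-labile subunit of the circulating complex, had 25 UMIs, 23 of them in hepatocytes and none in mesothelial cells.

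Of 23 genes that relay the signal, 22 had enough counts, with 4 higher and 1 lower; the share higher was near the 20.8% of all genes. Grb10, an adaptor that restrains the receptor, was 86.2-fold higher (58.4 to 132) at 112 CPM, and Irs1, a main docking protein, 11.6-fold (6.24 to 22.4) from 35 against 16 UMIs. Grb2, which links receptors to Ras, was 3.32-fold lower. Of 6 receptors reported for binding proteins, Lrp1 was 2.69-fold lower at 488 against 1312 CPM, and Itgav was 2.58-fold higher. Ptprb, an endothelial phosphatase gene, was 7.56-fold lower, but it is also a marker of the endothelial gate. Cyr61, a CCN protein with a domain like that of the binding proteins, was 154-fold higher (115 to 213).

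**Figure D5:**
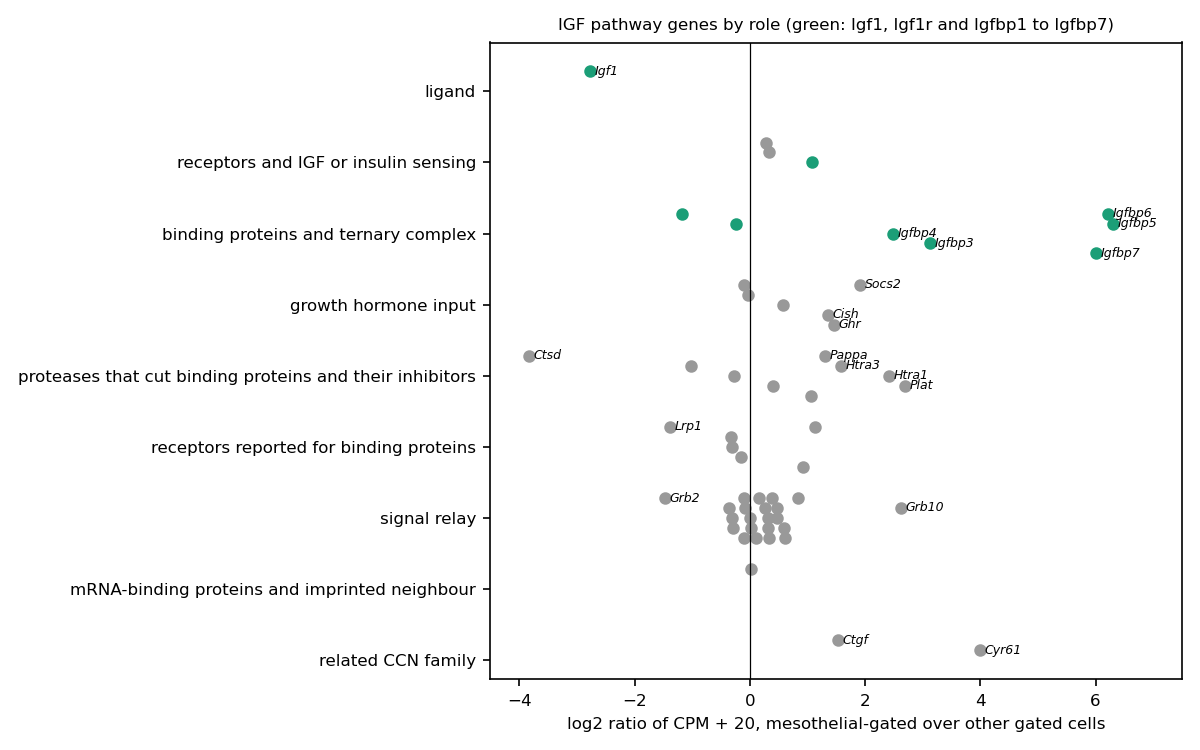
Log2 ratio of CPM + 20 in mesothelial-gated over other gated cells for the 57 pathway genes with at least 30 UMIs on either side, by role (rows); green points are the ligand, receptor and binding proteins described, grey points the other genes, and names are printed past 1.2 on either side. Igfbp5, Igfbp6 and Igfbp7 lay above 6, and most signal relay genes lay near 0.

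The genes whose level was most like each member across 16 classes of at least 40 cells were found by Pearson correlation of log2(CPM + 20), which is given as a description; the classes share 1 library. Wwp1 (r = 0.98), Tmem37 and Selenop were most like Igf1. Klf5 (0.91), Hdc and Vezf1 were most like Igf1r, of which Hdc encodes the histamine-forming enzyme of basophils and mast cells. Proc, Cyp2d9 and Ftcd (each 1.00) were most like Igfbp1, and Arhgef19 (0.96), Itih1 and Errfi1 most like Igfbp2. Collagen genes Col5a3 and Col6a3 and Scrn1 (each 1.00) were most like Igfbp3. Few classes set such values. Igfbp1 was at 166 CPM in hepatocytes, with 55.9% of those counts in 2 cells, and at 6.69 CPM or less elsewhere. Igfbp3 was at 2.92 CPM or less outside the mesothelial subsets. An r near 1.00 here says little beyond sharing the same high classes. Esr1 (0.92), Egln3 and Zbtb41 were most like Igfbp4. Adamts2, a procollagen-cutting protease gene, came first for both Igfbp5 and Igfbp6 (each 0.99), followed by Hspb2 and Col4a5 for Igfbp5 and by Saa3 and Loxl1 for Igfbp6. Fam110c (0.98), Gpc3 and Scarf2 were most like Igfbp7.

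Within the 473 mesothelial cells, correlations over cells were weaker, and depth is shared by all genes of a cell. For Igfbp7 they were highest with Bgn (r = 0.59), the biglycan gene, Alcam and Tmem176b. Igfbp4 went with Csrp2 (0.53), Fgf1 and Fndc1, and Igfbp3 with Ly6a (0.43), Fgf1 and Fndc1. Igfbp6 went with Rarres2 (0.50), Serping1 and Clec3b, and Igfbp5 with Cmah (0.43), Gbp2 and Efemp1. Igf1 (Csrp2, 0.35) and Igf1r (Bcl9l, 0.22) had the weakest. Between members, the highest was 0.30 for Igfbp3 with Igfbp4, which was 0.15 after thinning, and the lowest was -0.24 for Igfbp3 with Igfbp7, which was -0.09 after thinning.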

How the data were processed

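The authors deposited sparse matrices of UMI counts per gene and cell, without normalization; the submitters' processing notes name GRCm38, and for the aligner and cell calling nothing is given in the sources used here. Gene names exist for the matrix labelled CluKO, and 3 wild-type matrices gave depth only. Cells were kept from 200 genes upward and up to 20% of counts from mitochondrial genes. A cell joined a class when it carried a minimum number of the class markers (4 to 10, by class, set after the marker counts were seen); 235 cells passed no gate and 374 passed several and were left out, which was the treatment of doublets. Scrublet (scanpy 1.11.5) marked only 6 cells (0.130%). Whether it found the doublets of these data was not tested, and its scores served only for an alternative.

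The members, lists and comparisons were chosen with earlier results of these data known. The single pooled sample allows no test between samples, so the text holds no p-value. Levels carry exact Poisson, shares Clopper-Pearson and ratios conditional binomial intervals at 95%, for counting error only (Python 3.11.15, numpy 2.4.6, scipy 1.17.1, pandas 2.3.3). A gene counted as higher or lower at 2-fold or more with at least 30 UMIs on either side. The ratio calculation was tested on simulated data. All 10 members were named, with up to 5 other pathway genes in each direction by size of ratio, Igf2r, Insr, Igfals and Ghr always, and the 3 genes most like each member; the remaining pathway genes named were chosen after their values were seen. The comparisons of hepatocytes with other cells and of macrophages with hepatocytes were added after the data were seen. Promoters come from RefSeq (GRCm38.p6), in which all 10 members were matched, and gene positions from GENCODE for GRCm38. The values of 1 marker list are not reported here.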

Additional observations from a re-analysis of the deposited data

How the results depend on the processing

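No paired analysis was possible because the matrix with gene names pools its 6 samples without a sample name per cell. Alternatives were a stricter cell filter, 1 more marker per gate, removal of the 5% highest doublet scores, equal weight per cell, thinning to 1000 UMIs, another scaling, a count minimum of 10 and an offset of 5 CPM; an Enpp2 split at 3 UMIs and counting of cells with several gates were added after the data were seen. Of the recomputed counts of genes, 112 stayed within 1.5 times and 9 did not. Of the recomputed ratios, 309 counted as unchanged and 39 as moved, and of the recomputed levels 950 and 121. Of 216 recomputed ratios whose main value was at least 2-fold, 216 kept their direction. Of those not called at 2-fold, 125 kept it and 7 did not. Members lower with Enpp2 numbered 1 instead of 2 under thinning and with several-gate cells. Members lower in cycling cells numbered 0 instead of 1 with equal weight per cell. Between lipid-associated and Kupffer-gated cells, 1 instead of 0 was higher under thinning, under the count minimum of 10 and with several-gate cells, and 2 instead of 0 were lower under the count minimum of 10, which lets in genes with fewer counts. Between macrophages and hepatocytes, 2 instead of 1 were higher with 1 more marker and with several-gate cells, the added gene being Igfbp6, and under thinning the 1 was Igfbp7 (1.03 on the log2 scale), since Igf1r had too few counts. The pathway median was 0.15 under thinning and 0.50 with the offset of 5 CPM, instead of 0.34. Igf1r in hepatocytes, which rests on 1 UMI, was 51.3-fold lower than in other cells, and 10.2-fold lower with 1 more marker and 7.22-fold lower with several-gate cells. Apart from the count minimum, the cause was not tested. Depth limits the genes with few counts: Igf2, Igfals, and Igfbp1 and Igfbp2 outside hepatocytes.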
